A study of Homo sapiens with 9 samples.

Results

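Cell to cell junctions were examined through 43 protein-coding genes, chosen by symbol from the deposited count table of 64253 gene identifiers: 8 genes of adherens junctions, 15 of desmosomes, 17 of tight junctions, and 3 others (the connexins GJA1 and GJB2 and the adhesion molecule EPCAM). The selection rule uses symbols and junction type, and the set was drawn up with earlier results of these data known. One gene, NECTIN1, stands in the table under its older symbol PVRL1. After genes with few reads were set aside, 37 of the 43 were tested.

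The RNA came from EPC2, described by the labels as a normal esophageal squamous cell line, in 3 groups of 3 libraries. Untreated cells (Ctrl, called mock untreated in the growth text) were not transfected, the vector group (Lipo) was transfected with empty vector using Lipofectamine 2000, and the plasmid group (Fox) with a FOXF1 plasmid using the same reagent. FOXF1 is a forkhead transcription factor of mesenchyme. The 3 groups share the line and its culture, so every value below describes a single cell line. The vector and plasmid groups share the transfection, and they differ by the plasmid used. The sources used here give neither the plasmid's promoter nor the share of cells transfected nor the time of harvest. The design text calls the libraries biological triplicates, and the p-values set group differences against the spread between such libraries. The questions were how the junction genes of transfected cells differ from those of untreated cells, and what FOXF1 adds to the empty vector.

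Adherens junctions join neighbouring cells through classical cadherins, whose tails bind beta-catenin, plakoglobin and p120-catenin, and through alpha-catenin the actin cytoskeleton. Desmosomes use the desmosomal cadherins (desmogleins and desmocollins), and plakophilins, plakoglobin and plakins tie these to keratin filaments, which gives stratified epithelia such as that of the esophagus their mechanical strength. Tight junctions seal the space between cells with claudins, occludin and junctional adhesion molecules over a plaque of zonula occludens proteins, and gap junctions pass small molecules through connexin channels.

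The 9 libraries held 34390666 to 39973289 counts in genes. On unscaled totals, 3 reads corresponded to 0.0751 to 0.0872 CPM (counts scaled to a common library size), depending on the library. This limit covers counting error only. FOXF1 had between 141 and 367 reads in the plasmid libraries and at most 6 in the others. The share of counts on mitochondrially encoded genes was 20.9% ± 2.0 (SD, n = 3) in untreated libraries, 11.2% ± 0.759 with the vector and 14.1% ± 0.518 with the plasmid, and its part in the differences from untreated cells below was not tested. With those genes removed before scaling, the numbers of junction genes called were the same, 8 with the vector and 4 with the plasmid. Of all genes 9.88% were then called higher and 9.96% lower with the vector, and 4.36% and 4.43% with the plasmid. The removal moved the all-gene median log2 fold change only from 0.044 to 0.033 with the vector, so it does not test that part. The squamous label was set against its markers. TP63, the master regulator of stratified epithelium, had no read in any library, and the 7 squamous markers examined summed to 2.15 ± 0.588 CPM in untreated cells, of which the keratin KRT6A held 1.57 CPM, and to 1.49 ± 0.186 with the vector and 1.66 ± 0.435 with the plasmid. The keratins of simple epithelium, KRT7, KRT8, KRT18 and KRT19, summed to 4292 ± 336 CPM untreated, 3597 ± 225 with the vector and 4037 ± 139 with the plasmid. Of 6 fibroblast markers PDGFRB alone had a group mean above 0.1 CPM, at 38.5 CPM in untreated cells, 53.5 with the vector and 52.7 with the plasmid; the collagen gene COL1A2 and LUM had no read. PTPRC and CD3E, which mark leukocytes, and CLDN5, the endothelial claudin, also had none, and the endothelial list summed to less than 1 CPM in every library. The monocyte gene CD14 stood at 9.0, 10.4 and 10.8 CPM in the 3 groups. CD79A, also among the leukocyte markers examined, stood at 0.488 CPM untreated, 0.398 with the vector and 0.241 with the plasmid. In RNA from bulk cells, a change in the share of cells that express a gene and a change in RNA per cell cannot be told apart.

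Transfection with the empty vector was accompanied by higher RNA of 8 of the 37 tested junction genes, and no junction gene was lower. The 8 were the adherens genes CTNNB1 and CDH3, the desmosomal genes PPL, PERP and DSG2, the tight junction genes F11R and CLDN7, and the connexin GJB2. Calls are those of edgeR's quasi-likelihood test over 16366 genes with a Benjamini-Hochberg adjusted p below 0.05. By that rule 10.2% of all tested genes were called higher and 9.37% lower in this comparison. The split depended on the scaling and the tool: DESeq2's size factors in edgeR gave 6 junction genes higher and 1 lower (NECTIN1, -0.21, adjusted p = 0.0453), and DESeq2 itself 6 higher and 2 lower (NECTIN1 and PKP4). Over all genes these settings called 8.99% and 9.4% higher, and 11% and 11.9% lower. Scaled by total counts alone, 15 were higher and 0 lower, with 35% of all genes called higher. Without untreated library 1 or vector library 3, 5 were higher and 0 lower. Those runs called 6.13% and 6.65% of all genes higher, and 6.65% and 7.07% lower. The median log2 fold change was 0.127 over the 37 genes and 0.044 over all genes, and 25 of the 37 values were positive. With the FOXF1 plasmid, 4 of the 37 were higher than in untreated cells (PPL, CLDN7, F11R and GJB2) and none was lower, where 4.63% of all genes were called higher and 3.89% lower. DESeq2 gave 4 higher and 2 lower there (CTNND1, -0.17, and DSP, -0.28), with 4.96% of all genes higher and 5.45% lower. Total counts alone gave 8 higher, with 14.2% of all genes called higher. Without plasmid library 3, 2 were higher, with 3.13% of all genes called higher. The 4 genes called by edgeR were also called with the vector; both comparisons use the same untreated libraries. The median over the 37 genes was then 0.032, and over all genes 0.016.

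Between the plasmid and the empty vector no junction gene was called, and 0.0550% of all genes were called higher and 0% lower. Without vector library 1 the calls over all genes were 154 higher and 172 lower of 16736 tested, with 0 junction genes among them. DESeq2 called 0.55% of all genes higher and 0.0122% lower. At an unadjusted p below 0.05 there were 3 of the 37 junction genes, CTNNB1, DSG2 and CLDN12, all with lower values in the plasmid libraries, where 9.43% of all genes had such a p in either direction. The smallest adjusted p among the 37 was 0.169, that of CTNNB1. DESeq2 called 1 junction gene in this comparison, again CTNNB1, at an adjusted p of 0.03, and limma-voom called 0. Of all genes limma-voom called 0.0794% higher and 0% lower. The median log2 difference of the 37 genes was -0.084, and of all genes -0.014.

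**Figure D1:**
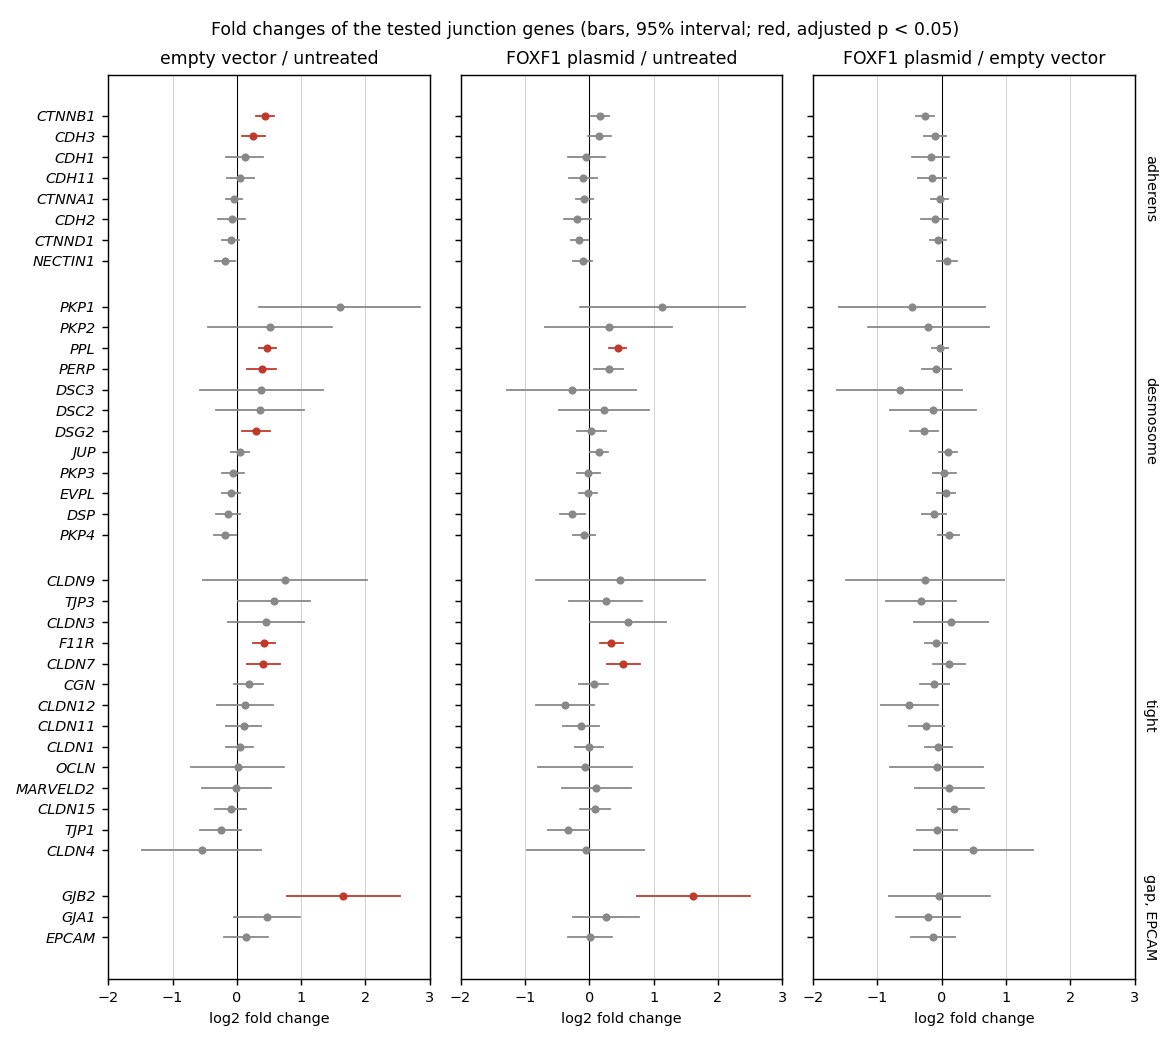
Each row is a tested junction gene, grouped by junction type; the horizontal axis is the log2 fold change, points are the estimates, bars the 95% intervals, and red marks an adjusted p below 0.05. In the left panel 8 genes are red and all lie to the right of 0, in the middle panel 4, and in the right panel none.

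Sequences before transcript starts of the junction genes were read because the genes called by edgeR were all higher than in untreated cells. DESeq2 also called 2 lower with the vector and 2 lower with the plasmid. RefSeq (GRCh38.p14) windows of 250 bases before a transcript start were available for 31 of the 43 genes. DSG2 and CLDN7 are shown for their E-boxes, the letters CAGGTG or CACCTG bound by SNAI and ZEB repressors, and PERP for the only forkhead letters, GTAAACA or TGTTTAC, among the 5 called genes that have a window. Capitals mark E-boxes in the DSG2 and CLDN7 stretches, and the forkhead and AP-1 (TGANTCA) letters in the PERP stretch. The DSG2 stretch is chr18:31497927-31498042 on the plus strand, PERP is chr6:138107512-138107669 on the minus strand, and CLDN7 is chr17:7262479-7262508 on the minus strand; the CLDN7 bases are the last 30 before the start of the downstream of its 2 windows. Both CLDN7 windows precede RefSeq starts that lie inside the GENCODE 29 gene, chr17:7259903-7263983. The DSG2 and PERP stretches end where the GENCODE 29 gene begins, and DSG2 holds a second E-box, first letter at -116, in the part of its window not printed.
DSG2: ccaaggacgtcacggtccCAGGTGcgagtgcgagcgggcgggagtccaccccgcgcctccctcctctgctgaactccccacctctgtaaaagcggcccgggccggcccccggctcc
PERP: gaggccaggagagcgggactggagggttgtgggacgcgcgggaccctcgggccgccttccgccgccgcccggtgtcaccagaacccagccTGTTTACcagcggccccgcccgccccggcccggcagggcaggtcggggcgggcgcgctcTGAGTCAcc
CLDN7: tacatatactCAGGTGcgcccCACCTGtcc
Both strands were searched. E-boxes stood in the windows of 10 of the 31 junction genes, and in those of 20.6% of all 27305 genes with windows. Among the 10 were DSP and JUP, with 2 E-boxes each, which edgeR did not call. Genes can have several windows: by window the shares were 23.4% of 47 and 17.5% of 35116. The median GC content was 66% in the junction gene windows and 58% in all. This CLDN7 window holds 4 E-boxes, first letters at -174, -135, -20 and -9 from the start. Of all 35116 windows 0.122% hold at least 4. The window and the number 4 were taken from the matches found, so this share does not measure how unusual it is. The other CLDN7 window holds none. The forkhead letters stood in windows of 3 of the 31 genes (PERP, DSC2 and CLDN18) and of 3.66% of all genes. The AP-1 letters stood in 6 of the 31 and in 8.06% of all genes. ATF4-CHOP letters, TGATGNAA or TTNCATCA, were also searched. They stood in 1 of the 31 (DSG3) and in 3.89% of all genes. The windows of CTNNB1 and GJB2 hold none of these letters. A match describes letters only, and binding was not measured.

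Among the 8 adherens genes chosen, alpha-catenin and p120-catenin had the most RNA per length in untreated cells. CTNNA1, alpha-catenin, stood at 34.4 ± 2.30 CPM per kilobase of exon, and CTNND1, p120-catenin, at 13.2 ± 0.646. NECTIN1, an immunoglobulin-like adhesion receptor, stood at 9.02 and CTNNB1 at 6.43 on the same scale. The 4 cadherins chosen were lower: N-cadherin CDH2 at 4.49, P-cadherin CDH3 at 3.86, E-cadherin CDH1 at 1.45 ± 0.152 and the mesenchymal cadherin CDH11 at 1.24 ± 0.11 CPM per kilobase. E-cadherin RNA was thus below that of both N-cadherin and P-cadherin in these cells.

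CTNNB1 encodes beta-catenin, the link between cadherin tails and alpha-catenin and also the effector of Wnt signalling. Its gene lies at chr3:41194741-41260096 (GRCh38). CTNNB1 measured 70.2, 78.1 and 81.7 CPM untreated, 103, 106 and 102 with the vector, and 89.4, 82.0 and 87.6 with the plasmid. Every vector library lay above every untreated and every plasmid library, and the plasmid libraries lay between, the lowest of them only just above the highest untreated one. The log2 fold change with the vector was 0.43 ± 0.068 (SE; adjusted p = 2.59e-05), a 1.35-fold level. With the plasmid it was 0.17 ± 0.068 (adjusted p = 0.119), which did not pass. The plasmid minus vector difference was -0.26, with a 95% interval from -0.40 to -0.12 (adjusted p = 0.169).

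CDH3 (chr16:68636189-68722616) lies 14608 bases upstream of CDH1, in the same orientation. CDH3 measured 21.7, 24.1 and 26.4 CPM untreated, 29.3, 28.7 and 28.1 with the vector and 25.5, 27.8 and 26.9 with the plasmid. The vector libraries were above all others, and the plasmid and untreated libraries overlapped. Its log2 fold change with the vector was 0.25 (adjusted p = 0.0365), and 9 of 18 alternative analyses did not call it, among them those leaving out any vector library, untreated library 1 or 2, or plasmid library 2. Without untreated library 1 the value was 0.18 (adjusted p = 0.253). The neighbour CDH1 gave 8.50, 8.38 and 10.1 CPM untreated, 10.1, 7.85 and 11.4 with the vector and 8.28, 8.65 and 9.15 with the plasmid. These overlap in all groups, and the vector log2 fold change of 0.12 had a 95% interval from -0.16 to 0.41.

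Of the 8 chosen adherens genes, the 2 with the most RNA did not pass in any comparison. CTNNA1 measured 291, 327 and 293 CPM untreated, 296, 285 and 302 with the vector and 285, 289 and 290 with the plasmid. The vector libraries of CTNNA1 overlapped both other groups, and all plasmid libraries were below all untreated ones, by a log2 difference of -0.08 (adjusted p = 0.527). Its vector log2 fold change was -0.04, with a 95% interval from -0.17 to 0.09. Scaled by total counts alone it was 0.20 (adjusted p = 0.01). CTNND1 measured 111, 122 and 115 CPM untreated, 106, 107 and 112 with the vector and 105, 103 and 105 with the plasmid. The vector and untreated libraries of CTNND1 overlapped, and all 3 plasmid libraries were below the untreated ones by a log2 difference of -0.16 (adjusted p = 0.127). CDH2, CDH11 and NECTIN1 had vector log2 fold changes of -0.08, 0.06 and -0.18, and none passed; NECTIN1 came nearest, at an adjusted p of 0.0812.

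Cadherins outside the chosen genes were read from a longer list of 74 junction and regulator genes, of which 47 were tested. With the vector 6 of the 47 were higher and 5 lower, with the plasmid 5 and 0 against untreated cells, and between plasmid and vector 0. Of all tested genes 10.2% were called higher and 9.37% lower with the vector, and 4.63% and 3.89% with the plasmid. With libraries scaled by total counts alone, 20 were higher and 0 lower with the vector. That scaling called 35% of all genes higher and 2.07% lower. R-cadherin, CDH4, held 79.5% ± 2.08 of the length-scaled sum of the 4 classical cadherins CDH1 to CDH4 in untreated cells, at 38.3 CPM per kilobase, and NECTIN2 stood at 76.7; CDH4 is named here after its values were seen. CDH4 fell with the vector by 0.31 on the log2 scale (adjusted p = 0.00131), from 281 ± 24.3 to 226 ± 5.58 CPM. Scaled by total counts alone the change was -0.07 (adjusted p = 0.421). CDH4 did not pass with the plasmid (-0.20, adjusted p = 0.0613). DESeq2 called CDH4 lower there (-0.22, adjusted p = 0.0324). So did edgeR with a replicate block, with only the compared groups, and with mitochondrially encoded genes left out. CDH4 was also called lower with the plasmid without the filter on low counts, without untreated library 3 and without vector library 1. CDH3 held 8.07% ± 1.17 of that sum untreated and 11.2% ± 0.0994 with the vector. Of the 13 tested genes in the group of other cadherins, nectins and adherens plaque proteins, 3 were lower with the vector (CDH4, NECTIN2 and VCL) and 0 higher; NECTIN2 and VCL turned to 0.03 and 0.06 on the log2 scale, not called, under total counts alone. VCL was not called without untreated library 1 or 2 or any of the vector libraries. By edgeR's test on all 9 libraries 0 were called with the plasmid, against untreated cells or against the vector. DESeq2 called CDH4 and VCL lower with the plasmid than in untreated cells, where it called 4.96% of all genes higher and 5.45% lower.

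**Figure D2:**
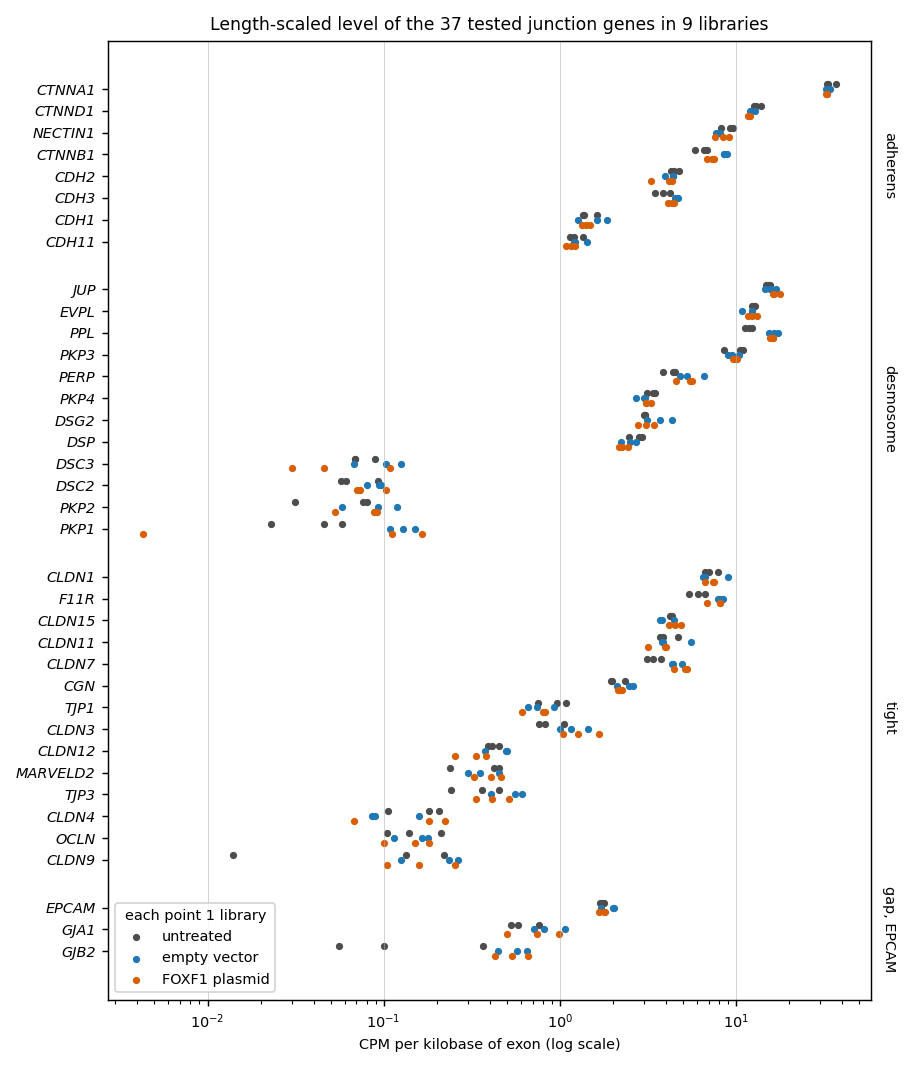
Points are single libraries of the 37 tested genes on a logarithmic axis of CPM per kilobase of exon, coloured by group, with genes ordered within each junction type by their untreated mean. CTNNA1 is the highest at 34.4 untreated, and the desmosomal genes DSC2, DSC3, PKP1 and PKP2 lie near or below 0.1.

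Single genes held most of the desmosomal cadherin and plakophilin RNA per length in untreated cells, DSG2 with 95.2% and PKP3 with 74.4%. DSG2, the desmoglein found in all desmosome-bearing tissues, stood at 3.02 ± 0.0114 CPM per kilobase, against 0.0756 ± 0.0124 for DSC3 and 0.0703 ± 0.0195 for DSC2. DSG1 and DSC1, the cadherins of cornifying layers, had no read in any library. On unscaled totals that allows up to 0.0087 CPM in the 9 libraries together. DSG3, the basal cell desmoglein, had 4 reads, all in untreated library 2. These 6 genes form a cluster of 559 kilobases (chr18:30990008-31549008), in which only DSG2 was above 2 CPM in any library. DSG3 ends 19340 bases before DSG2 starts. Among the plakophilins, the armadillo proteins of the plaque, PKP3 stood at 10.01 and PKP4 at 3.32 CPM per kilobase, and PKP2 and PKP1 at 0.0629 and 0.0421.

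Among the 15 desmosomal genes chosen, plakoglobin, envoplakin and periplakin had the most RNA per length. JUP, which encodes plakoglobin, had 15.2 ± 0.368 CPM per kilobase, EVPL (envoplakin) 12.6 ± 0.184 and PPL (periplakin) 11.8 ± 0.52 in untreated cells. Envoplakin and periplakin are partners at desmosomes and in the cornified envelope. DSP, desmoplakin, the main link to keratin, stood lower, at 2.74 ± 0.234 CPM per kilobase.

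PPL (chr16:4882507-4960741) had the smallest adjusted p of the 37 genes in both comparisons with untreated cells. In CPM it measured 86.3, 94.3 and 90.6 untreated, 126, 132 and 118 with the vector and 125, 124 and 120 with the plasmid. All 6 transfected libraries lay above all 3 untreated ones, and the transfected groups overlapped. The log2 fold change was 0.47 ± 0.065 with the vector (adjusted p = 4.21e-06) and 0.45 ± 0.065 with the plasmid (adjusted p = 2.51e-05). The plasmid minus vector difference was -0.03, with a 95% interval from -0.16 to 0.10. Its partner EVPL measured 95.8, 93.0 and 94.2 CPM untreated, 92.9, 92.2 and 81.4 with the vector and 99.0, 92.5 and 87.6 with the plasmid. EVPL was lower in each vector library than in any untreated one, but its log2 fold change of -0.09 did not pass (adjusted p = 0.416). As shares of the length-scaled sum of PPL, EVPL and DSP, PPL went from 43.4% ± 1.51 untreated to 53.3% with the vector and 52.2% ± 1.007 with the plasmid, and EVPL from 46.4% ± 1.22 to 38.6% ± 1.15 and 40.4%.

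PERP (chr6:138088505-138107511) encodes a membrane protein of desmosomes and is a target of p53 and p63. It measured 16.6, 18.9 and 19.2 CPM untreated, 20.8, 22.5 and 28.2 with the vector and 23.6, 19.6 and 24.2 with the plasmid. Both transfected groups lay above the untreated libraries and overlapped each other. The vector log2 fold change was 0.39 ± 0.109 (adjusted p = 0.0112). Without vector library 3 it was 0.25 (adjusted p = 0.14), and without untreated library 1 it was 0.31 (adjusted p = 0.076). The plasmid value was 0.30 ± 0.11 (adjusted p = 0.084), which did not pass. It passed under total counts alone (0.45, adjusted p = 0.0187) and with only the compared groups in the fit (adjusted p = 0.0447). Without vector library 1 or vector library 3 it also passed (adjusted p = 0.0484 and 0.0483).

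DSG2 (chr18:31498043-31549008) measured 18.7, 18.6 and 18.7 CPM untreated, 19.4, 22.8 and 26.9 with the vector and 21.2, 19.0 and 17.1 with the plasmid. The untreated libraries were nearly equal, the vector libraries spread widely above them, and the plasmid libraries overlapped both. The vector log2 fold change was 0.30 ± 0.107 (adjusted p = 0.0443), just past the threshold. It was lost in 10 of 18 alternative analyses, among them those without any one of the untreated libraries, without vector library 2 or 3 and without plasmid library 2. Without vector library 3 it was 0.18 (adjusted p = 0.324). Between plasmid and vector DSG2 differed by -0.27 (adjusted p = 0.432).

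The remaining desmosomal genes did not pass. JUP measured 76.7, 73.0 and 74.9 CPM untreated, 83.0, 72.7 and 76.9 with the vector and 79.8, 87.8 and 81.1 with the plasmid. The 3 plasmid libraries of JUP were above the untreated ones at a log2 difference of 0.15 (adjusted p = 0.194), and the vector libraries overlapped both. PKP1, the plakophilin of squamous epithelia, had 10, 13 and 5 reads untreated, 37, 35 and 29 with the vector and 28, 35 and 1 with the plasmid. The vector libraries of PKP1 were above the untreated ones, with a log2 fold change of 1.60 ± 0.609 (adjusted p = 0.0639), while plasmid library 3 had almost none. Without that library the adjusted p for the vector was 0.0173. DSP had a plasmid log2 fold change of -0.26 (adjusted p = 0.0775); PKP3 was within 0.06 of 0 in each comparison. PKP2, DSC2 and DSC3, all near or below 1 CPM, had 95% intervals over 1 log2 unit wide.

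**Figure D3:**
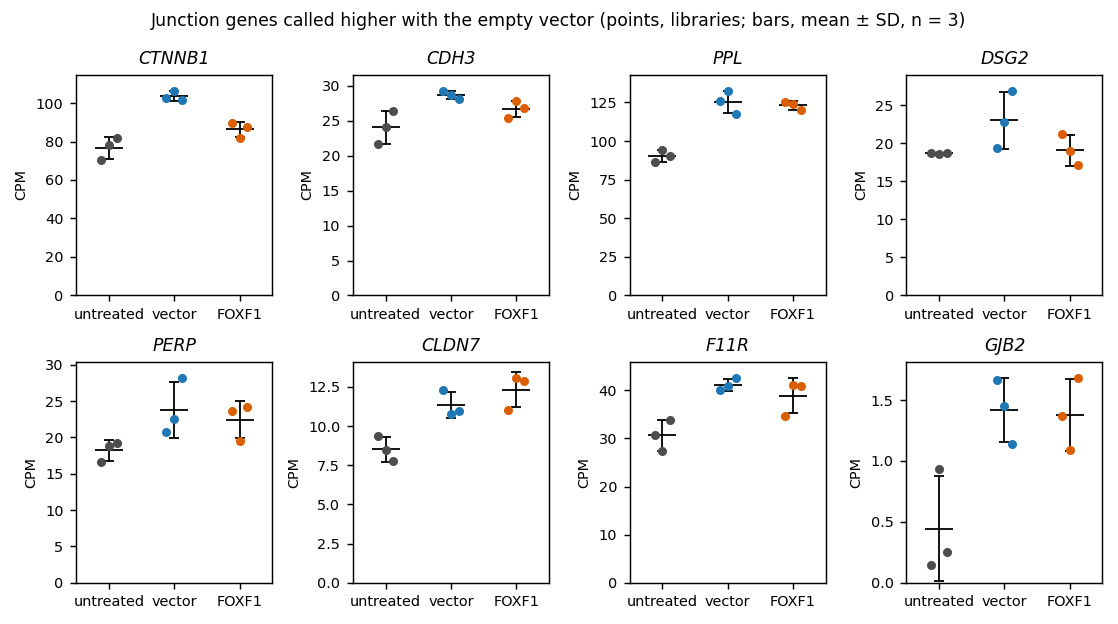
Each panel is 1 of the 8 junction genes called higher with the empty vector; points are CPM in single libraries and bars the mean ± SD of 3 libraries, on axes that start at 0. The vector libraries lie above the untreated libraries in every panel, and CTNNB1 and CDH3 are lower in all plasmid libraries than in all vector libraries.

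Among the 17 tight junction genes chosen, CLDN1, the barrier-forming claudin of squamous epithelia, had the most RNA per length in untreated cells. It stood at 7.20 ± 0.601 CPM per kilobase. F11R, which encodes junctional adhesion molecule A, stood at 6.05 ± 0.627, with its highest untreated library just below the lowest of CLDN1. CLDN15, a pore-forming claudin, stood at 4.26, CLDN11 at 4.08 and CLDN7 at 3.42 ± 0.319, and CLDN15 lay within the range of CLDN11. Cingulin (CGN), a plaque protein, stood at 2.10 and ZO-1 (TJP1) at 0.93. CLDN3, CLDN12, MARVELD2 (tricellulin), TJP3 (ZO-3), CLDN4, occludin (OCLN) and CLDN9 ranged from 0.876 to 0.123 CPM per kilobase. CLDN18, known from stomach, had no read, CLDN2 had 1 and CLDN6 had 3 in all 9 libraries. None of the 3 was tested. CLDN1 held 34.2% ± 1.48 of the length-scaled claudin RNA in untreated cells and CLDN7 16.3% ± 2.09; CLDN7 held 19.9% ± 2.48 with the vector and 21.5% ± 2.28 with the plasmid.

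CLDN1 gave 24.6, 25.7 and 28.8 CPM untreated, 23.8, 24.6 and 33.1 with the vector and 27.4, 27.0 and 24.4 with the plasmid. The groups overlapped, and the vector log2 fold change of 0.04 had a 95% interval from -0.17 to 0.26.

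F11R (chr1:160995211-161021348) measured 30.8, 27.4 and 33.8 CPM untreated, 40.04, 40.9 and 42.5 with the vector and 34.7, 41.1 and 40.8 with the plasmid. Every transfected library was above every untreated one; plasmid library 1 was close to the highest of these. The log2 fold change was 0.43 ± 0.085 with the vector (adjusted p = 0.000482) and 0.34 ± 0.085 with the plasmid (adjusted p = 0.00905). The plasmid call was lost without untreated library 2 (0.26, adjusted p = 0.116), plasmid library 2 (0.29, adjusted p = 0.0787) or plasmid library 3 (0.31, adjusted p = 0.0649). In GENCODE 29, 36.6% of the F11R exon length is shared with AL591806.3 on the same strand. That gene had between 0 and 8 reads per library, and how reads in the shared part were assigned is not given in the sources used here. Of the 43 genes, 6 share exon length with a gene on the same strand and 12 with one on the opposite strand.

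CLDN7 (chr17:7259903-7263983) encodes a claudin that binds EPCAM at the lateral membrane. It measured 9.35, 8.46 and 7.77 CPM untreated, 12.3, 10.8 and 10.97 with the vector and 11.04, 13.1 and 12.9 with the plasmid. The 6 transfected libraries were above the 3 untreated ones. Its log2 fold change was 0.41 ± 0.124 with the vector (adjusted p = 0.018) and 0.53 ± 0.125 with the plasmid (adjusted p = 0.00598), and the plasmid minus vector difference of 0.12 had a 95% interval from -0.13 to 0.37. The vector call was lost without untreated library 2 (adjusted p = 0.0587), untreated library 3 (adjusted p = 0.0951) or vector library 1 (adjusted p = 0.0544), and the plasmid call was kept in all 18 alternatives. The partner EPCAM, at 1.73 ± 0.0422 CPM per kilobase, measured 4.38, 4.47 and 4.25 CPM untreated, 4.31, 5.08 and 5.07 with the vector and 4.18, 4.53 and 4.48 with the plasmid. Its groups overlapped, and the plasmid log2 fold change of 0.01 had a 95% interval from -0.33 to 0.35.

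The other 12 tested tight junction genes did not pass against untreated cells in either transfected group. CLDN12 measured 2.79, 3.06 and 2.64 CPM untreated, 2.55, 3.31 and 3.40 with the vector and 1.72, 2.56 and 2.27 with the plasmid. The lowest vector library lay within the plasmid range, and the plasmid minus vector difference was -0.51 (adjusted p = 0.481). CLDN12 shares 16.3% of its exon length with other genes on the same strand, among them CDK14, which had 69 to 146 reads. TJP1 had log2 fold changes of -0.25 with the vector and -0.32 with the plasmid (adjusted p = 0.267 and 0.212). OCLN, with 1.023 ± 0.364 CPM untreated, had a vector log2 fold change of 0.01 and a 95% interval from -0.71 to 0.73. In the list of 28 further tight junction genes, 17 were tested. With the vector 1 was higher (LSR) and 1 lower (MARVELD1, which turned to 0.02, not called, under total counts alone). Over all tested genes 10.2% were called higher and 9.37% lower with the vector, and 4.63% and 3.89% with the plasmid. LSR, the lipolysis-stimulated receptor of tricellular junctions, was also the 1 called with the plasmid, with log2 fold changes of 0.20 (adjusted p = 0.0223) and 0.26 (adjusted p = 0.00816). The vector call of LSR was lost without untreated library 1 or 2 or vector library 1 or 3, and the plasmid call without untreated library 2 or plasmid library 2. MARVELD1 was not called without untreated library 1 or vector library 2.

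GJB2 (chr13:20187463-20193010), the gene of connexin 26, had the largest fold change of the tested junction genes and one of the lowest levels. Its reads numbered 5, 34 and 9 untreated, 66, 64 and 49 with the vector and 55, 37 and 63 with the plasmid. That is 0.142, 0.937 and 0.255 CPM, then 1.67, 1.45 and 1.14, then 1.37, 1.09 and 1.68. All transfected libraries were above all untreated ones, and untreated library 2 was close to the lowest transfected library. The log2 fold change was 1.66 ± 0.429 with the vector (adjusted p = 0.00589) and 1.62 ± 0.432 with the plasmid (adjusted p = 0.0154). Without untreated library 2 these were 2.81 and 2.77. The plasmid call was lost without untreated library 1 (1.19, adjusted p = 0.0946), untreated library 3 (1.33, adjusted p = 0.0651) or plasmid library 3 (1.45, adjusted p = 0.0828). GJA1, connexin 43, measured 2.62, 1.79 and 1.99 CPM untreated, 2.42, 2.77 and 3.65 with the vector and 2.54, 1.71 and 3.39 with the plasmid. The groups of GJA1 overlapped and its vector log2 fold change of 0.47 did not pass (adjusted p = 0.197).

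Among the other connexins and pannexins, 5 of 11 were tested. Of these 3 were higher with the vector, 2 with the plasmid, and 0 lower. Over all tested genes 10.2% were called higher and 9.37% lower with the vector, and 4.63% and 3.89% with the plasmid. GJC1 (connexin 45) held 58.8% ± 2.96 of the length-scaled connexin RNA in untreated cells. It measured 23.9, 24.2 and 26.5 CPM untreated, 30.8, 35.6 and 39.5 with the vector and 32.0, 31.1 and 31.1 with the plasmid. All transfected libraries were above the untreated ones, at log2 fold changes of 0.51 ± 0.088 (adjusted p = 9.44e-05) and 0.34 ± 0.088 (adjusted p = 0.0132). The vector call was kept in all 18 alternatives, and the plasmid call was lost without untreated library 1 or 2 or plasmid library 1 (adjusted p at most 0.0748). GJA3 (connexin 46) had 0.654, 0.855 and 0.709 CPM untreated, 0.706, 1.75 and 2.0 with the vector and 1.74, 1.82 and 1.49 with the plasmid. Vector library 1 lay among the untreated libraries and the other transfected libraries above them, at log2 fold changes of 1.008 (adjusted p = 0.0352) and 1.18 (adjusted p = 0.026). Both calls were lost without any one of the untreated libraries, the vector call also without vector library 2 or 3 (0.74 without the latter, adjusted p = 0.222), and the plasmid call without plasmid library 1 or 2. With limma-voom neither passed (adjusted p = 0.113 and 0.0598), and the vector call was also lost with only the compared groups in the fit (0.0594). The third was the pannexin PANX1, at 0.49 with the vector (adjusted p = 0.00453). Of the connexins, GJC1, GJB2 and GJA3 each passed in both comparisons, which share the untreated libraries.

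**Figure D4:**
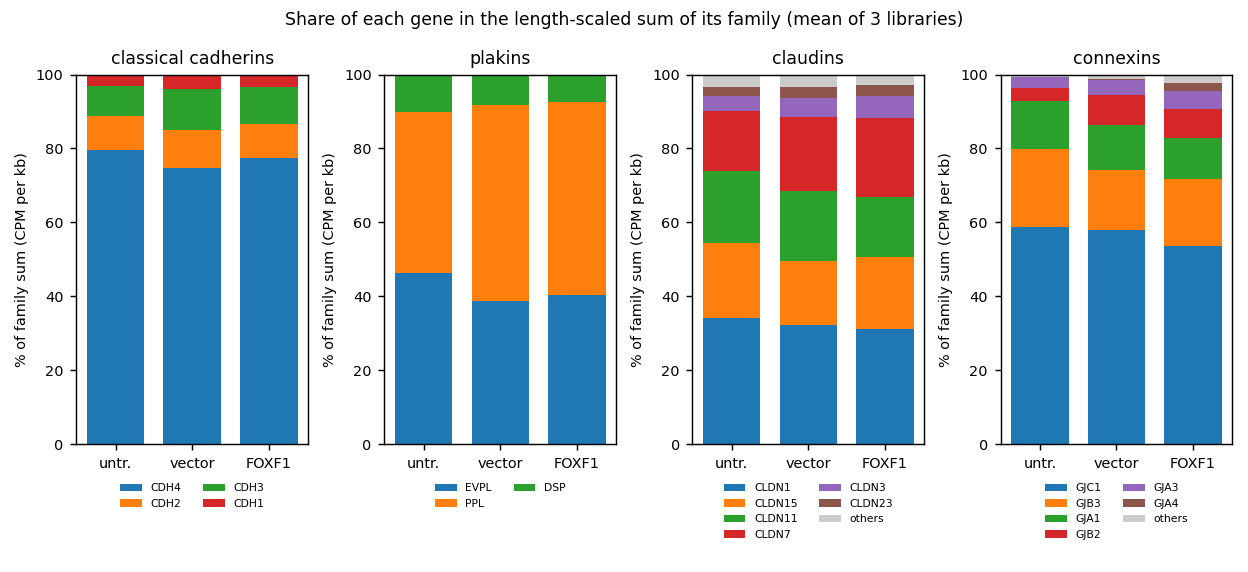
Stacked bars give each gene's mean share, in percent, of the length-scaled RNA of 4 gene families in the 3 groups; genes that never reach 2% are pooled as others. CDH4 fills most of the classical cadherin bar (79.5% untreated), PPL is the largest of the 3 plakin shares in both transfected groups, and GJC1 leads the connexins.

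The transcription factors known to act on E-cadherin or other junction genes were read from the same list. The repressors SNAI1 and SNAI2 were present, at 11.3 ± 0.962 and 9.73 ± 0.366 CPM in untreated cells. SNAI2 measured 10.01, 9.32 and 9.87 CPM untreated, 13.7, 13.4 and 15.6 with the vector and 13.1, 14.6 and 10.8 with the plasmid. All its transfected libraries were above the untreated ones, with log2 fold changes of 0.55 ± 0.122 (adjusted p = 0.00152) and 0.40 ± 0.123 (adjusted p = 0.0401). The plasmid call was lost without any one of the untreated libraries, vector library 2 or plasmid library 1 or 2 (0.28, adjusted p = 0.241, without plasmid library 2) and with limma-voom (adjusted p = 0.071), and the vector call was kept in all 18 alternatives. SNAI1 did not pass (0.12 with the vector, adjusted p = 0.561). KLF4, an activator of epithelial genes, measured 14.9, 16.2 and 15.9 CPM untreated, 25, 22.9 and 24.3 with the vector and 22.3, 23.0 and 21.9 with the plasmid. Its transfected libraries were well above the untreated ones, at log2 fold changes of 0.62 ± 0.091 (adjusted p = 1.04e-05) and 0.52 ± 0.091 (adjusted p = 0.000331). TWIST1 stood at 7.19 ± 0.421 CPM untreated and did not pass, and TWIST2 was lower with the vector by a log2 change of -0.42 (adjusted p = 0.00097), or -0.17 (adjusted p = 0.114) under total counts alone. ZEB1 and ZEB2 were near 1 CPM or below (1.16 ± 0.55 and 0.579 ± 0.144 untreated). The epithelial factors OVOL1 and OVOL2 had at most 0.149 and 0.293 CPM in a library, and GRHL2, an activator of E-cadherin, had no read. Over the 12 tested factors, 2 were higher and 1 lower with the vector, 2 higher and 0 lower with the plasmid, and 0 were called between plasmid and vector. Over all tested genes 10.2% were called higher and 9.37% lower with the vector, and 4.63% and 3.89% with the plasmid.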

How the data were processed

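RNA libraries were made with a stranded mRNA kit, per the labels' protocols. The authors deposited raw read counts per gene, and the submitters' processing notes name bcl2fastq, STAR 2.5.2b, HTSeq and GRCh38; the sources used here give no strand setting and no annotation release. Library and group names came from the column names of that table. Counts were filtered with edgeR's filterByExpr (minimum count 10) and scaled by TMM factors; the quasi-likelihood test of edgeR 4.0.16 in R 4.3.3 was fitted to all 9 libraries as group means, and p-values were Benjamini-Hochberg adjusted over 16366 genes. CPM use the TMM-scaled totals, except for the counting limits, which use unscaled totals. CPM per kilobase divide by the union of GENCODE 29 exons, which matched 56591 of 64253 identifiers and supplied the coordinates. Standard errors are the log2 fold change over the root of its F value. Replicates differed by more than sampling noise in all pairs.

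The members and lists were chosen with earlier results of these data known. Values in each library were given for members called with an absolute log2 fold change of at least 0.3 and for the 2 most abundant genes per length of each junction type; list genes were named at 0.5. The library values of CDH1, CDH3, PKP1 and CLDN12 and the list genes under 0.5 were added after their values were seen. Alternatives, with limma 3.58.1 and DESeq2 1.42.0 among them, are described at the end. The fitting script was tested on simulated data.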

Additional observations from a re-analysis of the deposited data

How the results depend on the processing

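Alternatives were run for the counts of called genes and for each junction gene. With libraries scaled by total counts alone, 15 junction genes were called with the vector and 8 with the plasmid against untreated cells. Of the longer list 20 and 9 were called. That scaling shifted the all-gene median from 0.044 to 0.289 (log2) with the vector. It called 35% of all genes higher with the vector and 14.2% with the plasmid. There CTNNA1 turned from -0.04 to 0.20 (adjusted p = 0.01), and NECTIN2, VCL and MARVELD1, lower with the vector, turned to 0.025, 0.059 and 0.015 without a call. At an adjusted p below 0.01, 4 junction genes remained with the vector, and 7 and 2 genes of the longer list with vector and plasmid. That threshold called 5.59% of all genes higher and 5.99% lower with the vector, and 2.5% and 1.75% with the plasmid. limma-voom called 3 list genes with the plasmid, and 4.07% of all genes higher and 3.69% lower. Between plasmid and vector, 1 junction gene, CTNNB1, was called by DESeq2 and without the filter on low counts (-0.28, adjusted p = 0.0325). Without the filter 0.195% of all genes were called higher and 0.139% lower, and with DESeq2 0.55% and 0.0122%.

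Leaving out 1 library at a time gave 5 to 9 junction genes with the vector (5 without untreated library 1 or vector library 3), 2 to 5 with the plasmid (2 without plasmid library 3) and 0 to 0 between plasmid and vector. The longer list gave 7 to 14, 2 to 7 and 0 to 0. In these runs 6.13% to 12.6% of all genes were called higher with the vector, and 2.63% to 5.66% with the plasmid. Between 5.88% and 10.7% were called lower with the vector, and between 2.09% and 4.67% with the plasmid. CTNNB1, PPL, F11R and GJB2 with the vector, and PPL and CLDN7 with the plasmid, were called in all 18 alternatives. The cause of these differences was not tested. Deviations from group means correlated at -0.09 to 0.084 between same-numbered libraries and at -0.08 to 0.131 between different-numbered ones. With 3 libraries per group, these values cannot settle whether the numbers mark shared batches. With a replicate block, 9, 4 and 0 junction genes were called in the 3 comparisons, and 11, 6 and 0 list genes. The block called 10.5% of all genes higher and 9.61% lower with the vector, and 5.2% and 4.23% with the plasmid. OCLN, CLDN4, CLDN9, PKP1, PKP2, DSC2, DSC3 and GJB2 had few reads and wide intervals; the parts of depth and of replicate spread in these were not tested.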

Other observations

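GJA4, the gene of connexin 37, did not pass the filter on low counts and is named after its values were seen. No untreated library held a read of it, the vector libraries held 0, 3 and 1, and the plasmid libraries 12, 13 and 3. Plasmid libraries 1 and 2 were above all others, and plasmid library 3 equalled vector library 2 in reads. With no filter, edgeR's quasi-likelihood test gave an adjusted p of 0.00838 for the plasmid against untreated cells. Against the vector it gave 0.511, where the plasmid minus vector log2 difference was 2.88. NECTIN2 held most of the nectin RNA per length and was lower with the vector, at 287 ± 5.59 CPM untreated and 247 ± 5.69 with the vector (log2 fold change -0.22, adjusted p = 0.00963; 0.03 under total counts alone).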
